A study of Mus with 6 samples.

Results

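The mitochondrial ribosomal protein genes were measured as 132 of the 45281 probes of an Illumina mouse bead array. They are the probes whose annotated symbol starts with Mrpl or Mrps followed by a digit. The 132 probes represented 76 genes, of which 48 carry a large subunit name (Mrpl, 83 probes) and 28 a small subunit name (Mrps, 49 probes). All 132 symbols were unchanged on a lookup by Entrez number in the RefSeq list of mouse genes. That list holds 78 protein-coding genes of these names, and the remaining pair, Mrpl41 and Mrps36, was not analysed here. RNA came from leukaemic cells of mice with chronic myeloid leukaemia induced by BCR-ABL p210, taken from bone marrow 14 days after transplantation and labelled C57BL/6. The sort took GFP-positive LSK cells, that is lineage-negative cells with Sca-1 and c-Kit on their surface, a fraction that holds stem cells and early progenitors. There were 3 arrays of wild-type (WT) cells and 3 of Klf4-deficient cells, and all 6 carried BCR-ABL. Klf4 encodes a zinc finger transcription factor. How it was removed, and whether the arrays of a group came from separate mice, is not given in the sources used here, so p-values reflect only how far these samples spread, and that spread may be technical.

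Mitochondria have a ribosome of their own, which translates the few messages transcribed from mitochondrial DNA. All of these products are subunits of the respiratory chain and of ATP synthase. Its RNA is made inside the organelle, while its proteins are encoded in the nucleus, translated in the cytosol and imported. The large subunit joins amino acids and the small subunit reads the message. Leukaemic stem cells are known to depend on oxidative metabolism in several settings, and so on mitochondrial translation.

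Probe intensities were deposited on a linear scale and run below 0, as they do once a background is subtracted. Values under 32 were set to this floor and the log2 was taken, so a probe at the floor was not above 32 on that array. Between 7082 and 7214 probes exceeded 32 on each array. WT replicate 3 stood apart: over the 18270 probes above 32 on at least 1 array, its Pearson r with each remaining array was 0.29 to 0.30 across probes, against 0.66 to 0.72 among those remaining 5. Klf4 gave no check of the labels, since its 3 probes were at the floor except in WT replicate 2, with 51.9 on ILMN_2999439, and the position of its probes in the deleted gene was not analysed here. Of the gate's surface markers, Kit was above the floor on 4 arrays on at least 1 probe and Ly6a (Sca-1) was not analysed here. Of other markers used to subdivide LSK cells, Flt3 was above the floor on 5 arrays, Cd48 on 3, Cd34 on 1 and Slamf1 on none. Of 13 probes of lineage markers and the pan-leukocyte gene Ptprc, 7 exceeded the floor on any array. Of these, 5 were lower and 2 higher in Klf4-deficient arrays (median -0.13, against -0.05 over all probes). The tested Ptprc probes, at -0.59, -0.13 and 0.05, mark no lineage, and the median is that of a Ptprc probe. Among the lineage markers the T cell gene Cd8a was above the floor on 5 arrays, and Itgam, Cd3e and Cd4 only in WT replicate 3. Ms4a1 and Klrb1c never exceeded it, and the part of such cells in the results was not tested.

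More of the mitochondrial ribosomal probes than of the array as a whole lay above the floor, and WT replicate 3 had the fewest. In WT, 53, 43 and 27 of the 132 probes exceeded 32, or 40.2%, 32.6% and 20.5%. In Klf4-deficient arrays 44, 48 and 45 did so, or 33.3%, 36.4% and 34.1%, against 15.6% to 15.9% of all probes. The Klf4-deficient counts thus lay inside the WT range. Of the 132 probes, 87 (63 genes) exceeded the floor on at least 1 array and were tested, and 45 never did. A probe that passed through the higher group alone had to differ between groups, so counts and medians over the 87 are descriptions. The same holds for the SE and p of a probe with a whole group at the floor, where the floor sets that group's SD to 0. Such levels are per amount of RNA, and fewer cells of a type cannot be told apart from less RNA per cell.

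**Figure D1:**
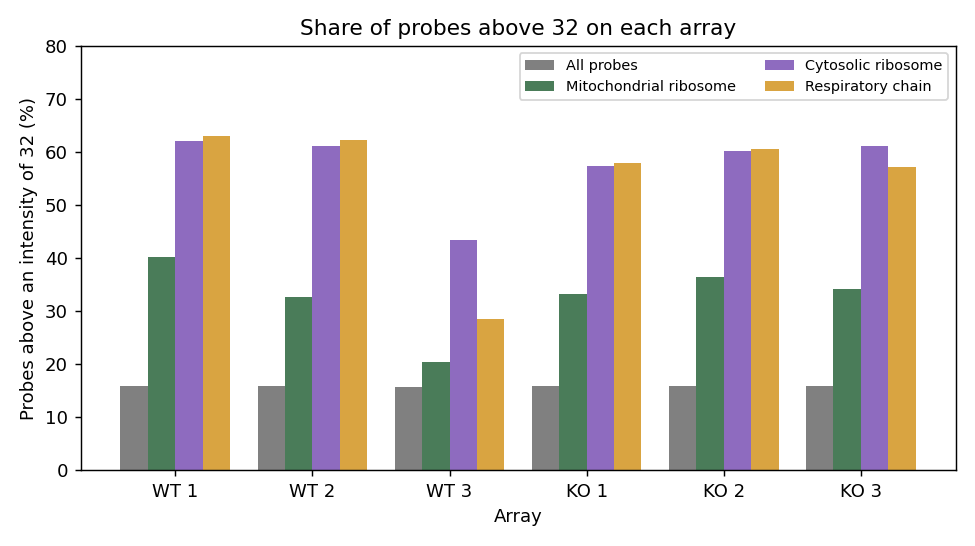
Share of probes above an intensity of 32 (%, vertical axis) on each of the 6 arrays (KO, Klf4-deficient), for all probes, the 132 mitochondrial ribosomal probes, 108 cytosolic ribosomal protein probes and 119 respiratory chain and ATP synthase probes. In WT replicate 3 the mitochondrial ribosomal share was 20.5% and the respiratory chain share 28.6%, while the share of all probes was 15.6%.

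The design sets Klf4-deficient against WT leukaemic cells to find transcripts that change with the loss of Klf4. No mitochondrial ribosomal probe was called, and neither was any other probe. By limma at an adjusted p under 0.05, 0 of the 87 tested probes were called, against 0 (0%) of all 18270, and the lowest adjusted p among the 87 was 0.71. At an unadjusted p under 0.05 there were 7, all higher in Klf4-deficient arrays, or 8.05% of the 87. Over all probes tested, 2.03% reached that level, 1.46% higher and 0.575% lower. Trend and robust eBayes left 1 such member, against 175 of all 18270 probes, and the ordinary t statistic 4, against 239. By either, 0 members were called. The groups did not overlap for 7 probes, or 8.05% of the 87 and 5.3% of the 132, all of them higher in Klf4-deficient arrays. Among all probes tested 3.09% did not overlap, 2.13% with Klf4-deficient arrays higher and 0.958% with these lower. Members were above the floor more often than probes at large. Among probes above it on at least 3 arrays, 7 of 46 members were higher and 0 lower without overlap, against 6.06% and 2.73% of all 6422. A probe that does not overlap at this floor has 1 whole group above it, so it passes that filter by construction. These are the same 7 probes over fewer members, and the shares are descriptions. The split of 7 to 0 depended on the floor, which ties low values. With a floor of 16 it was 8 higher and 2 lower among 112 probes, against 2.32% and 1.53% of all probes tested. With an offset of 16 in place of a floor it was 10 and 5 among 87, against 4.21% and 3.91%. The lower probes of the first setting, Mrps7 ILMN_2981821 and Mrps10 ILMN_2691360, were also among those of the second. The median SD within a group over the 87 probes was 0.76 (log2) in WT, 0.49 in WT without replicate 3, and 0.57 in Klf4-deficient arrays.

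Among large subunit genes, 5 had a probe whose groups did not overlap, each higher in Klf4-deficient arrays. Mrpl3, a protein near the peptidyl transferase centre, read 216, 72.3 and 126.2 in Klf4-deficient arrays on probe ILMN_1231390, against 1.4, 18.1 and 5.1 in WT. All Klf4-deficient arrays were above the floor and all WT arrays below it, so the WT SD was 0 by the floor and the p is a description. The difference was at least 3.92-fold (1.97 ± 0.43 log2, SE, n = 3 per group, limma unadjusted p = 0.0051, adjusted p = 0.71). Its other tested probe, ILMN_2643264, read 142.3, 87.9 and 35.8 against 187.9, -7.9 and -4, where WT replicate 1 was the highest of the 6, and differed by 0.41 ± 0.92.

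Mrpl18, a protein of the central protuberance, read 448.4, 323.8 and 165 in Klf4-deficient arrays versus 155.5, 59.9 and 55.2 in WT on probe ILMN_2823250. All 6 values were above the floor, and the lowest Klf4-deficient value lay just above the highest WT value. The difference was 3.6-fold (1.85 ± 0.58, unadjusted p = 0.023, adjusted p = 0.71). Its second probe, ILMN_2659762, had the opposite sign (-0.88 ± 0.78), with 218, 55.4 and 2.2 in WT versus 60.2, 8.9 and -1.5 in Klf4-deficient arrays.

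Mrpl40, Mrpl19 and Mrpl37 repeated the pattern of Mrpl3, where no WT array and every Klf4-deficient array exceeded the floor. Mrpl40, whose human counterpart lies in the region lost in DiGeorge syndrome, read 106.2, 46.4 and 93 against 3.5, -6.1 and 8.9 and was at least 2.41-fold higher (1.27 ± 0.36, unadjusted p = 0.015). Mrpl19 (ILMN_2652226) read 40.4, 165 and 74.1 against -17, 0 and -2.7 and was at least 2.47-fold higher (1.3 ± 0.54, unadjusted p = 0.057). Mrpl37 (ILMN_1254715) read 38.9, 103.5 and 90 against 20.2, 4.1 and 1.2 and was at least 2.23-fold higher (1.16 ± 0.41, unadjusted p = 0.036). The adjusted p was 0.71 for each, and these p-values too are descriptions. Without Klf4-deficient replicate 2 the difference of Mrpl19 was 0.77. Mrpl19 and Mrpl37 each had a second probe that stayed near the floor: that of Mrpl19 exceeded it on no array, and that of Mrpl37 only in WT replicate 3, at 34.2.

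Mrpl13, the counterpart of a conserved bacterial large subunit protein, reached an unadjusted p under 0.05 with groups that overlapped. Probe ILMN_2982192 read 112.9, 233.4 and 304.3 in Klf4-deficient arrays versus 41.2, 114.1 and 7.8 in WT (1.91 ± 0.63, unadjusted p = 0.028, adjusted p = 0.71). The overlap came from WT replicate 2, which read slightly above Klf4-deficient replicate 1. Probe ILMN_2982200 differed by 0.62 ± 0.91, and the third probe exceeded the floor only in WT replicate 1, at 43.2.

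Of the small subunit names, Mrps12 and Mrps30 had groups that did not overlap. Mrps12, the counterpart of the bacterial decoding centre protein that mutates in streptomycin resistance, read 400.6, 241.3 and 345.4 in Klf4-deficient arrays versus 53.4, 82.1 and 235.2 in WT on probe ILMN_1254734. WT replicate 3 came close to Klf4-deficient replicate 2. The difference was 3.19-fold (1.67 ± 0.61, unadjusted p = 0.038, adjusted p = 0.71) and 2.28 (log2) without WT replicate 3. The second probe, ILMN_2777706, read 151.9, 145.7 and 149.4 in Klf4-deficient arrays, and 193.8, 43.2 and -1.5 in WT. Its Klf4-deficient values were nearly equal, its WT values spanned them, and the difference was 1.21 ± 0.72. Mrps30, which ribosome structures place in the large subunit despite its name, read 86.7, 176.1 and 124 against 67, 37.4 and 10.1 and was 2.87-fold higher (1.52 ± 0.41, unadjusted p = 0.013, adjusted p = 0.71).

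At the floor of 32 no member was lower in Klf4-deficient arrays without overlap, and Mrps7 had the largest fitted difference on that side. Mrps7, which organises the head of the small subunit, was above the floor only in WT replicates 1 and 2, on both of its probes. Probe ILMN_2981818 read 426.8, 240.3 and 13.1 in WT against 0.3, 21.4 and -3.2 in Klf4-deficient arrays. The difference of floored values was 4.64-fold (-2.22 ± 1 log2, SE, limma unadjusted p = 0.076, adjusted p = 0.71). It is no lower bound, since WT replicate 3 was itself raised to the floor. Probe ILMN_2981821 read 63.3, 241.9 and 17.6 against -2.1, -14.7 and -4.2 (-1.3 ± 0.76, unadjusted p = 0.15). WT replicate 3 lay at the floor with the Klf4-deficient arrays on both probes, although its 17.6 on the latter was above all Klf4-deficient values as deposited.

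**Figure D2:**
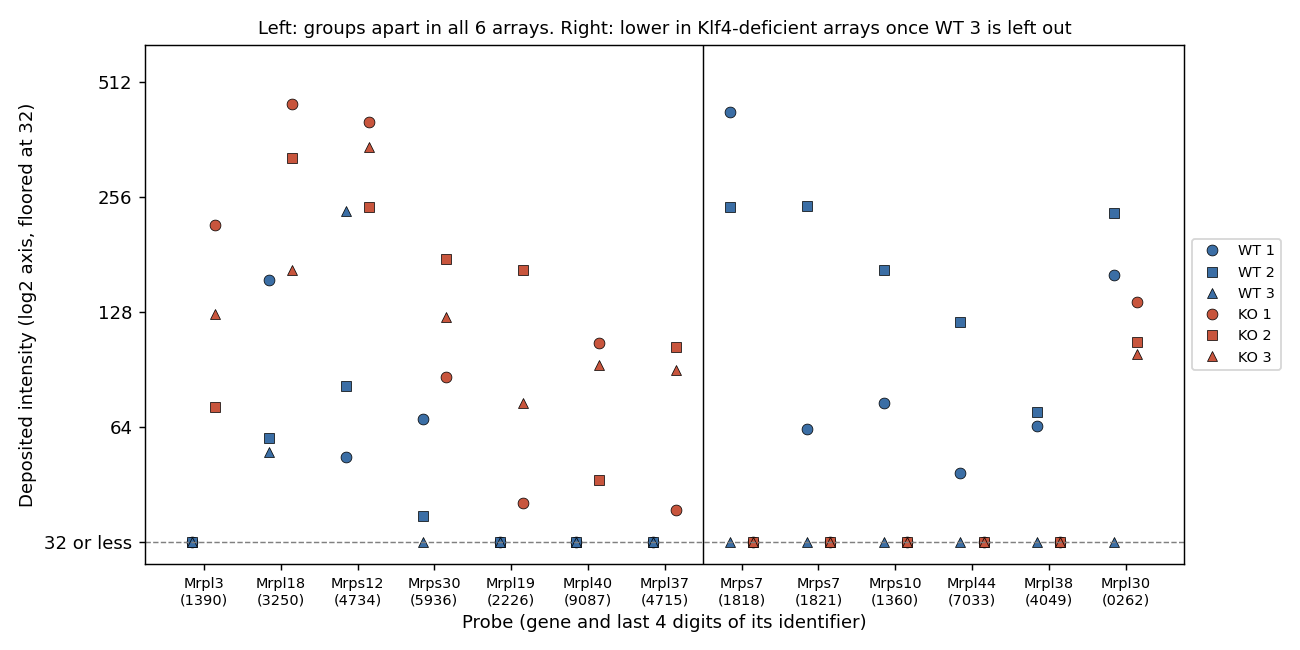
Deposited intensity (log2 axis, values of 32 or less drawn at 32) of 13 probes on the 6 arrays, with circles, squares and triangles for replicates 1, 2 and 3 of WT (blue) and Klf4-deficient (KO, red). The 7 probes on the left did not overlap between groups, and for the 6 on the right the Klf4-deficient arrays lay below WT replicates 1 and 2 while WT replicate 3 was at the floor.

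Leaving out WT replicate 3 separated 6 lower probes beside 8 higher ones. These were the probes of Mrps7 (-3.32 ± 0.32 and -1.95 ± 0.63, log2, SE, 2 WT against 3 Klf4-deficient arrays), Mrps10 (ILMN_2691360, -1.79 ± 0.4), Mrpl44 (-1.26 ± 0.45), Mrpl38 (ILMN_2664049, -1.07 ± 0.19) and Mrpl30 (-0.77 ± 0.29). In that fit of 81 probes, 9.88% did not overlap with Klf4-deficient arrays higher and 7.41% with these lower, against 3.36% and 5.1% of the 14950 probes tested. Again 0 were called by limma, with 9 members at an unadjusted p under 0.05, against 532 of the 14950. The lowest adjusted p of a member was 0.29, that of Mrps7 probe ILMN_2981818 (unadjusted p = 0.00033). The probe that joined the higher side was Mrpl21 ILMN_2543346. The 7 probes named above had to stay on that side, whichever array is left out, since removing an array cannot make separated groups overlap. Their differences were then 1.58 for Mrpl18, 1.31 for Mrps30 and 2.28 for Mrps12. Those of Mrpl3, Mrpl19, Mrpl37 and Mrpl40, whose WT arrays all lay at the floor, were as given above. Other arrays mattered as much. Without WT replicate 2, 11 probes were higher and 4 lower without overlap, against 6.4% and 3.79% of all probes tested, and without WT replicate 1, 13 and 3, against 4.87% and 3.71%. The lower ones were then Mrps5, Mrps18c, Mrps24 and Mrpl47 ILMN_1226238, and Mrpl49, Mrpl34 and Mrpl33 ILMN_2629835, respectively. Without WT replicate 2 the differences of Mrps7 ILMN_2981821, Mrps10 ILMN_2691360 and Mrpl44 ILMN_1227033 shrank to -0.49, -0.61 and -0.30, and without WT replicate 1 that of Mrps7 ILMN_2981818 was -1.45.

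The values behind these lower probes were as follows. Mrps10, of the small subunit head, read 74.1, 164.6 and 19.2 in WT versus 18.6, 9.5 and 7.6 in Klf4-deficient arrays on that probe. Mrpl44, a large subunit protein with a fold related to ribonuclease III, read 48.6, 120.8 and 7.8 against 11.7, 9.4 and 7.1 (1.79-fold lower over all arrays, -0.84 ± 0.52, unadjusted p = 0.16). Mrpl38 read 64.5, 70.1 and 5 against 19.9, 24.9 and 5.6 (1.64-fold lower, -0.71 ± 0.35, unadjusted p = 0.092). All 3 shared the pattern of Mrps7, above the floor in WT replicates 1 and 2 only. Mrpl30, a large subunit protein, read 159.9, 232.2 and 10.2 in WT versus 135.9, 106.6 and 99.5 in Klf4-deficient arrays, so with WT replicate 3 included its difference was 0.09 ± 0.79.

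In other low members WT replicate 3 was the highest array, beside 1 other high WT array. Mrps5, whose bacterial counterpart lines the entry path of the message, read 219.8, 22.4 and 355.4 in WT versus 34.3, 29.2 and 20.8 in Klf4-deficient arrays on probe ILMN_2780177 (-2.05 ± 0.94, unadjusted p = 0.079, adjusted p = 0.71). Mrpl49 (ILMN_2634295) read 41, 174 and 233.8 against 20.8, 51 and 36.6 (-1.6 ± 0.72, unadjusted p = 0.073, adjusted p = 0.71). Mrps18c read 485.9, 148 and 923.7 against 77.4, 154 and 319.4 (-1.37 ± 0.86, unadjusted p = 0.17, adjusted p = 0.71). Without WT replicate 3 the differences were -1.36, -1.11 and -0.78. Without WT replicate 2 those of Mrps5 ILMN_2780177 and Mrps18c ILMN_2747345 were -3.09 and -2.1, and without Klf4-deficient replicate 1 that of Mrps18c was -0.87.

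**Figure D3:**
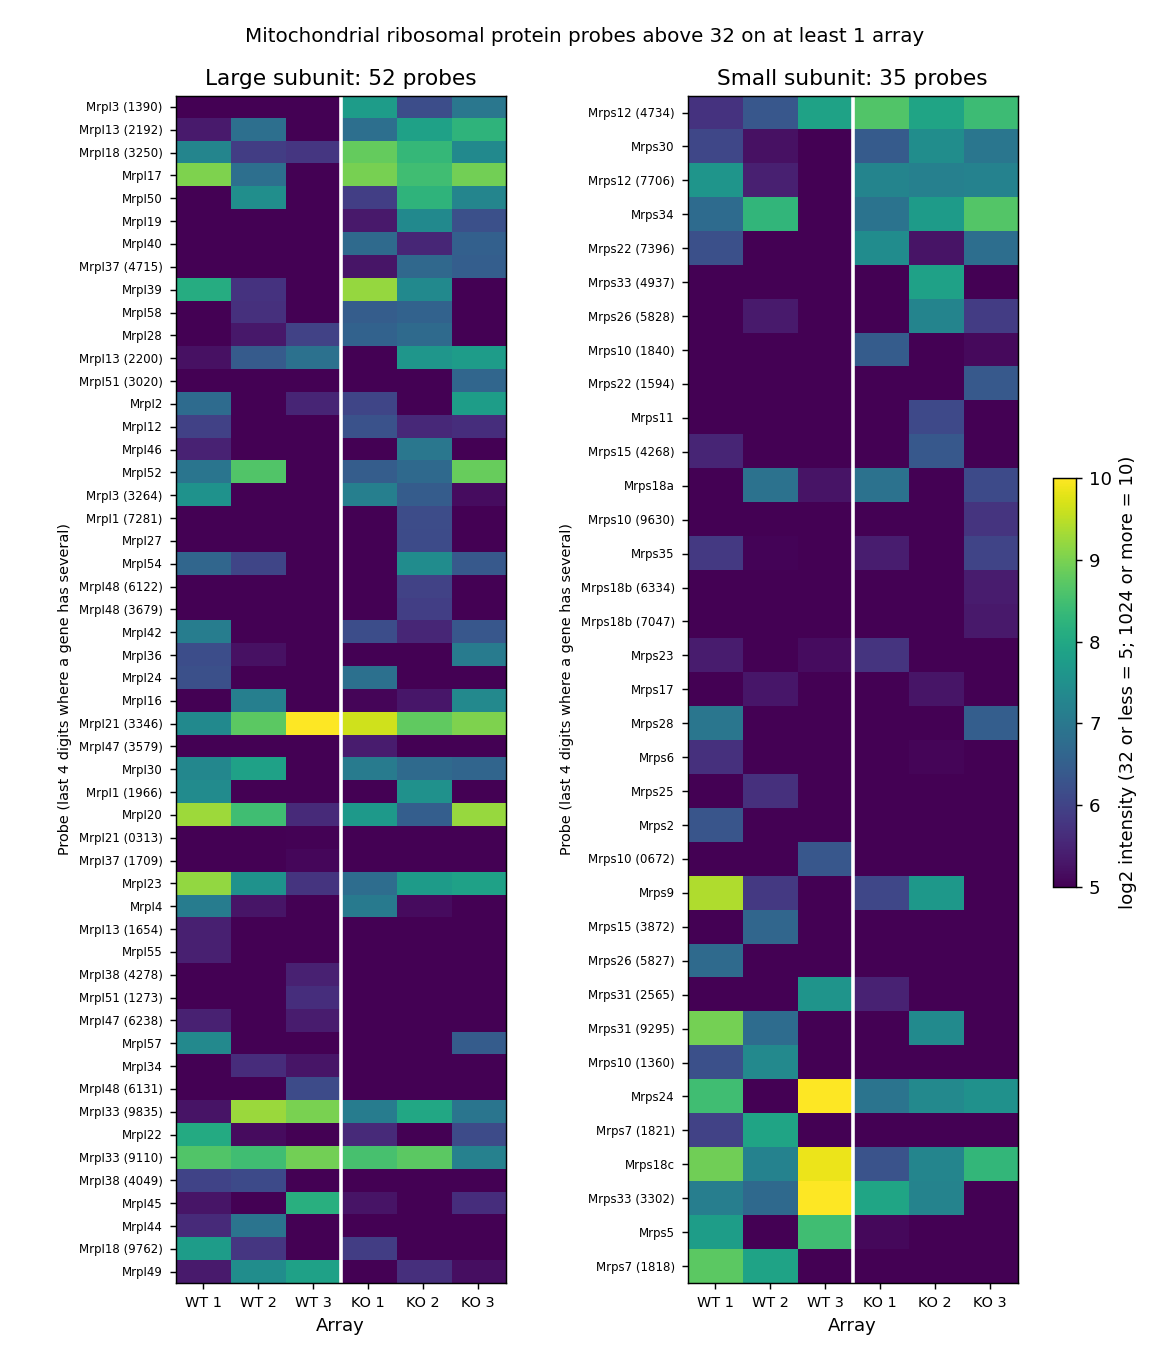
Log2 intensity, from 5 (32 or less, dark) to 10 or more (bright), of the 52 large subunit and 35 small subunit probes above 32 on at least 1 array (rows, ordered by the difference between groups) on the 6 arrays (columns; KO, Klf4-deficient). The column of WT replicate 3 is dark for most rows, with 27 of the 87 probes above 32, yet holds the brightest cells, among them 4252.4 for Mrps24.

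Only 8 of the 132 probes were above the floor on all 6 arrays, those of Mrpl18, Mrpl20, Mrpl21, Mrpl23, Mrps12 and Mrps18c and both probes of Mrpl33. For these, differences were measured on both sides. The Mrpl33 probe ILMN_1229110 was the steadiest, with 400.1, 353 and 486.8 in WT versus 372.1, 429.3 and 147.3 in Klf4-deficient arrays (-0.52 ± 0.46), and only Klf4-deficient replicate 3 stood off. Probe ILMN_2629835 of the same gene ran from 38.5 to 607.9 within WT alone, and differed by -0.49 ± 1.17. Mrpl23, whose bacterial counterpart sits at the mouth of the exit tunnel, read 587.6, 187.6 and 53.9 against 109.9, 214.5 and 232.1 (-0.04 ± 0.93), so the Klf4-deficient arrays lay inside the WT range. Mrpl20, an early assembling protein in bacteria, also overlapped fully, with 615.8, 354.7 and 48.4 against 208.7, 90.2 and 600.1 (0.03 ± 1.2). Mrpl21 (ILMN_2543346) read 166.4, 427.8 and 1846.1 in WT versus 798.8, 437 and 525.8 in Klf4-deficient arrays (0.16 ± 0.92), and was 1.09 without WT replicate 3. The adjusted p of these 5 probes was 0.71 to 0.99.

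Another 8 probes were above the floor on every array except WT replicate 3. They were those of Mrpl17, Mrpl30, Mrpl52, Mrps30 and Mrps34 and 1 probe each of Mrpl13, Mrps12 and Mrps22. Mrpl17 read 523.2, 114.1 and -13.4 in WT versus 501.8, 353.3 and 489.5 in Klf4-deficient arrays. Its difference was 1.84 ± 1.04 over all arrays and 0.86 without WT replicate 3. Among these 8 probes the differences ran from 0.09 (Mrpl30) to 1.91 (Mrpl13), and without WT replicate 3 from -0.77 to 1.55 for the same genes. In all, 22 of the 87 probes were above the floor in WT replicates 1 and 2 and at the floor in WT replicate 3. Yet 15 of the 87 had their highest value on that array, and 6 were above the floor there alone. The largest value of any member was that of Mrps24, a small subunit protein, with 4252.4 in WT replicate 3 against 352.1 and 20.1 in the other WT arrays and 121.4, 162.6 and 184.7 in Klf4-deficient arrays. Mrps33 (ILMN_3163302) likewise read 1826.4 in WT replicate 3 against 30.7 to 247 on the other arrays.

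For Mrps22, Mrps28, Mrpl12 and the Mrps18 paralogs the groups overlapped. Mrps22, mutated in such defects in humans, read 74.3, 32.4 and -4.8 in WT versus 171.6, 38.4 and 111.6 in Klf4-deficient arrays on probe ILMN_2787396 (1.08 ± 0.68), and its other probe exceeded the floor only in Klf4-deficient replicate 3, at 83.9. Mrps28 was above the floor on 1 array per group, at 125.3 in WT replicate 1 and 90 in Klf4-deficient replicate 3 (-0.16 ± 0.74). Mrpl12, the stalk protein that recruits translation factors, read 62.2, -2.5 and -6.2 in WT versus 76.8, 47.7 and 50.2 in Klf4-deficient arrays, so all Klf4-deficient arrays and 1 WT array were above the floor (0.51 ± 0.37). Mrps16 and the pentatricopeptide repeat protein Mrps27 never exceeded the floor. Of the Mrps18 paralogs, Mrps18a, which structures place in the large subunit, read 12.1, 118.3 and 38.5 in WT versus 118.4, 4.2 and 70 in Klf4-deficient arrays (0.29 ± 0.72). Mrps18b exceeded the floor on 1 array, Klf4-deficient replicate 3, at 41.9 and 40.8 on 2 of its 3 probes. The adjusted p of all these was 0.71 or more.

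Large and small subunit probes differed in where their medians lay. Of 52 large subunit probes tested, 32 (61.5%) were higher with Klf4 deficiency and 20 lower, with a median of 0.20 and a mean of 0.26 (log2). Of 35 small subunit probes, 17 (48.6%) were higher and 18 lower, with a median of -0.01 and a mean of -0.13. Over all 18270 probes 45.8% were higher, with a median of -0.05. Without WT replicate 3 the large subunit share was 53.2% and the small subunit share 55.9%, against 54.9% of all probes, so the order of the shares turned, and the medians were 0.09 and 0.06 against 0.06. The means over the same 52 and 35 probes kept their order without that array, at 0.11 and -0.18.

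The array means show the same 2 sets by sample. The large subunit mean was 6.10, 5.87 and 5.55 (log2) in WT versus 6.02, 6.16 and 6.10 in Klf4-deficient arrays. The small subunit mean was 6.18, 5.71 and 5.81 in WT versus 5.68, 5.87 and 5.76 in Klf4-deficient arrays. For the large subunit, WT replicate 3 was low, while for the small subunit WT replicate 1 was high. The gap between the 2 means was -0.08, 0.15 and -0.27 in WT (mean -0.07 ± 0.21, SD, n = 3) and 0.33, 0.29 and 0.35 in Klf4-deficient arrays (0.32 ± 0.03), so the groups did not overlap. This gap was singled out after its values were seen and has no test. It has no meaning within an array, since probes differ in brightness. Its change between groups was 0.39 (log2), with 0.26 to 0.58 over 19 other settings. One of these counted Mrps30 and Mrps18a with the large subunit and gave 0.48. Settings that change only the variance estimate or add a replicate block cannot move this value, so the number of settings overstates how stable it is.

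**Figure D4:**
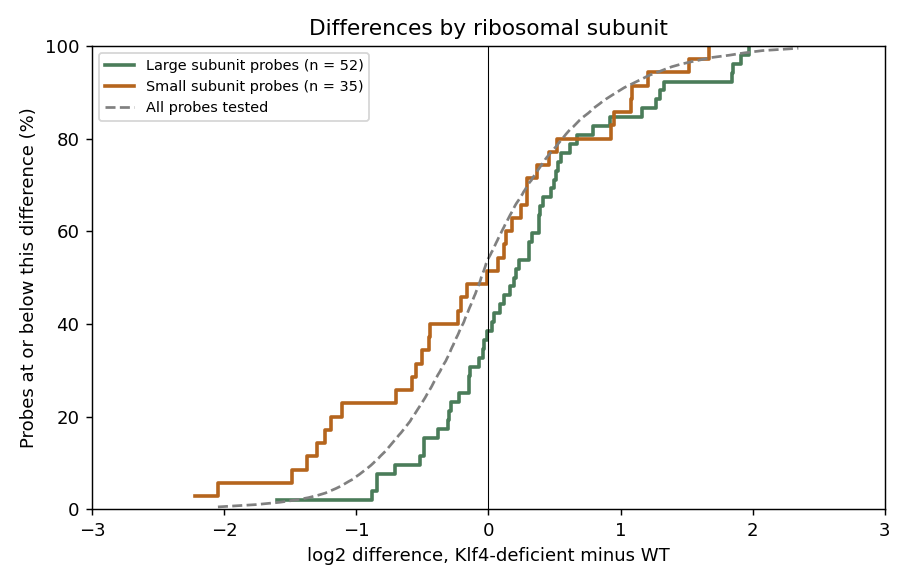
Cumulative share of probes (%, vertical axis) at or below each log2 difference between Klf4-deficient and WT arrays (horizontal axis), for 52 large subunit probes, 35 small subunit probes and all 18270 probes tested (dashed). The large subunit curve lies right of the dashed one around 0, and the small subunit curve reaches further left, with lower quartiles of -0.17 and -0.64 against -0.46 for all probes.

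Several probes of a gene often disagreed. On the array 33 of the 76 genes had more than 1 probe, up to 7 for Mrpl15, and 20 genes had at least 2 probes tested. In 9 of these 20 the probes had the same sign, 5 higher and 4 lower, and in 11 they had opposite signs. Between probes of a gene the differences spanned a median of 0.74 (log2). Over the 29 pairs of tested probes of a gene, the median Pearson r across the 6 arrays was -0.20, 18 pairs were below 0 and 2 above 0.8. These values describe the 6 arrays, where many values share the floor. Mrps10 had 4 tested probes, at -1.19, -0.45, 0.25 and 0.52, none of which exceeded the floor on more than 2 arrays. Mrps33 had -1.49 and 0.95, and Mrps26 had -0.58 and 0.93.

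Some genes gave matching probes. The Mrps7 probes followed each other (r = 0.77). A pair of Mrpl48 probes was above the floor only in Klf4-deficient replicates 2 and 3 or 2 alone, at 61.1 and 32.1 and at 63.3 (31.7 in replicate 3), while its remaining tested probe was lower (-0.38 ± 0.36). Both Mrps12 probes were higher in Klf4-deficient arrays and both Mrps31 probes lower (-0.70 and -1.11), although the Mrps31 pair peaked on different arrays, at 191.5 in WT replicate 3 and at 495.4 in WT replicate 1. Matching signs therefore did not always mean matching profiles.

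**Figure D5:**
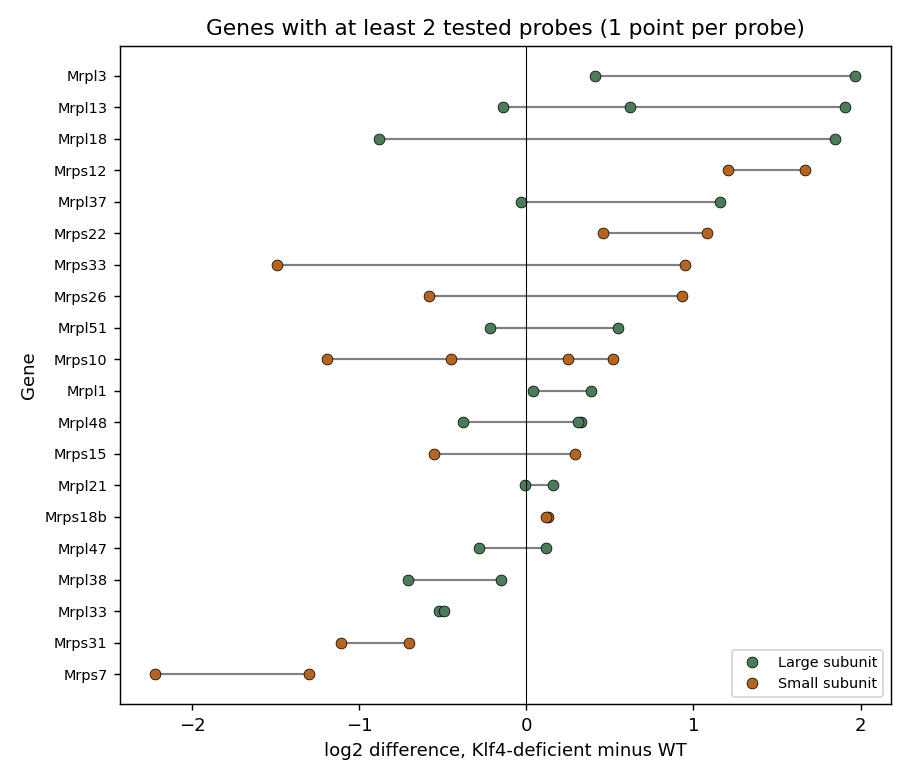
Log2 difference between Klf4-deficient and WT arrays (horizontal axis) for each tested probe of the 20 genes with at least 2 tested probes (rows), with a line joining the probes of a gene. The lines of 11 genes cross 0, while both points of Mrps7 lie on the lower side at -2.22 and -1.30 and both of Mrps12 on the higher side.

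Probes that never rose above the floor made up 45 of the 132, or 34.1%, against 59.7% of all probes. Of these, 11 belonged to the 13 member probes annotated with an accession that begins with AK in place of a RefSeq number. Thus 84.6% of AK probes and 28.8% of the 118 RefSeq (NM) probes were never above the floor, against 67.9% and 56.4% over the whole array. For 13 genes no probe exceeded 32 on any array. They were Mrpl9, Mrpl10, Mrpl11, Mrpl14, Mrpl15, Mrpl32, Mrpl35, Mrpl43 and Mrpl53 of the large subunit, and Mrps14, Mrps16, Mrps21 and Mrps27 of the small subunit. Mrpl15 had 7 such probes, 6 of them AK. Closest to the floor were Mrpl11 at 30.9 in WT replicate 2 and Mrpl32 at 30.2 in WT replicate 1. Just above it were Mrpl21 probe ILMN_2640313 at 32.6 and Mrpl37 probe ILMN_2751709 at 34.2, both in WT replicate 3. Of the 87 tested probes, 23 exceeded the floor on a single array, 12 of them in WT and 11 in Klf4-deficient cells.

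Genes that work with the mitochondrial ribosome were compared next, and 0 probes of any list were called by limma. Of 15 tested probes of translation factors (9 genes), 9 were lower and 6 higher (median -0.46), and 1 lower probe had an unadjusted p under 0.05. It was a probe of the recycling factor Mrrf, ILMN_2589266, which read 49, 69.5 and 46.9 in WT versus 41.5, -4.9 and 17 in Klf4-deficient arrays (-0.64 ± 0.24, unadjusted p = 0.045, adjusted p = 0.71). WT lay above the floor throughout. That list's median was 0.02 without WT replicate 2. Mtfmt, which formylates the initiator tRNA, read 94.1, 134.7 and 4.4 in Klf4-deficient arrays on probe ILMN_2734667, with all WT arrays at the floor (1.21 ± 0.56).

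Among the aminoacyl-tRNA synthetases of the organelle, 19 probes were tested. Of these, 12 were higher and 7 lower (median 0.13; -0.29 without Klf4-deficient replicate 1), and 2 had an unadjusted p under 0.05. Fars2, the phenylalanine enzyme, read 237.8, 71 and 367.6 in Klf4-deficient arrays versus 2.5, -4.1 and 23.8 in WT, a difference of at least 5.74-fold (2.52 ± 0.64, unadjusted p = 0.0099, adjusted p = 0.71). Vars2, the valine enzyme, read 230.9, 137.9 and 2665.5 in WT, while no Klf4-deficient array exceeded the floor, at 19.3, 29.7 and 1.2. It was at least 13.7-fold lower (-3.78 ± 1.16, unadjusted p = 0.021, adjusted p = 0.71), and its difference was -2.48 when WT replicate 3, the highest array, was left out. The 2 thus stood on opposite sides with no overlap between groups.

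The list of mitochondrial transcription and its nuclear regulators had 20 tested probes, 12 higher and 8 lower (median 0.41). Nrf1, a transcription factor of many nuclear genes for mitochondrial proteins, read 87.4, 125.8 and 170.3 in WT versus 63.8, 67.1 and 39.2 in Klf4-deficient arrays on probe ILMN_1251184, and its other probe never exceeded the floor. All 6 values were above the floor and the groups did not overlap, with a difference of -1.16 ± 0.36 (2.23-fold lower, unadjusted p = 0.021, adjusted p = 0.71). Tfb2m, which the mitochondrial RNA polymerase needs to start transcription, read 83.6, 126.4 and 7.2 in Klf4-deficient arrays against a WT group at the floor (1.12 ± 0.53). That list's median was -0.21 without Klf4-deficient replicate 3.

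Of 23 probes of ribosome assembly factors, 12 were higher and 11 lower (median 0.13), and 0 had an unadjusted p under 0.05. Their smallest p-values were those of Afg3l2, a protease of the inner membrane (-1.02 ± 0.59), and Ngrn (1.24 ± 0.71). The list's median was -0.32, -0.28 and -0.36 without Klf4-deficient replicates 1, 2 and 3 in turn. Noa1, a GTPase of small subunit assembly, was singled out after its values were seen: its 3 probes agreed, each highest in Klf4-deficient replicate 3, at 987.6, 700.2 and 548.4, with 1 further value above the floor, 151.5 in WT replicate 1. Of 8 tested probes of mitochondrial ribosomal proteins with other names (4 genes), 4 were higher and 4 lower. Dap3, a GTP-binding protein of the small subunit, had 4 tested probes that split, at -2, -0.69, 0.31 and 0.33, while both probes of the pentatricopeptide repeat protein Ptcd3 were higher (1.5 ± 0.88 and 2.09 ± 1.26). Messages made from mitochondrial DNA, the templates of this ribosome, had 0 probes under their names and were not analysed here.

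Cytosolic ribosomal proteins and the nuclear-encoded respiratory chain were the nearest sets for comparison. Of 89 cytosolic ribosomal protein probes tested, 61 (68.5%) were higher in Klf4-deficient arrays, with a median of 0.36. Of 100 respiratory chain and ATP synthase probes, 67 (67%) were higher, with a median of 0.40. The mitochondrial ribosomal probes had 56.3% and 0.12. Without WT replicate 3 the medians became 0, 0.04 and 0.07, and the shares higher 50%, 52.6% and 54.3%. WT replicate 3 also had fewer probes of these sets above the floor than any other array, 43.5% against 57.4% to 62% for cytosolic ribosomal proteins and 28.6% against 57.1% to 63% for the respiratory chain. Whether the sets differ from each other was not tested.

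In the RefSeq gene list 2 pairs of genes named here are direct neighbours. Mrps11 lies next to Mrpl46, and each was above the floor in Klf4-deficient replicate 2, at 68.4 and 126.3, where Mrps11 was otherwise at the floor and Mrpl46 exceeded it in WT replicate 1 as well, at 44.7. Mrps12 lies next to Sars2, the mitochondrial serine tRNA synthetase. While Mrps12 probe ILMN_1254734 exceeded the floor on all 6 arrays, the Sars2 probe did so only in WT replicate 2, at 34.4.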

How the data were processed

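The deposited table held intensities for 45281 probes on 6 arrays, produced with BeadStudio per the submitters' processing notes. A service laboratory (Asuragen) ran the arrays, per the labels' protocols. How the values were normalized is not given in the sources used here. They ran from -31 to 37007.2, 45.3% to 45.6% of each column lay at or below 0, and the columns lay on nearly the same scale, so no further normalization was applied. Groups came from the sample titles. Probes were named through the platform annotation and a RefSeq gene list (GRCm38.p6, used for names and neighbours only).

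Values under 32 were set to 32. Probes above 32 on at least 1 array were fitted with limma 3.58.1 (lmFit, eBayes) in R 4.3.3, Klf4-deficient against WT, with Benjamini-Hochberg adjustment over all 18270 probes and a threshold of 0.05. The fit was tested on simulated data drawn without a floor, so that test does not cover values tied at the floor. Where a whole group lay at the floor and the other group wholly above it, the fold is against the floor and written as "at least". Where the other group also held values at the floor, the fold is of floored values and is no bound. The number of arrays limits the precision.

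The members and lists were chosen with earlier results of these data known. The naming rule took called probes, the 8 members with the smallest p in each direction, members above the floor on all arrays, 12 chosen genes, and up to 2 probes of each other list. Other alternatives were floors of 16 and 64, an offset of 16, other filters, quantile normalization, one-value-per-gene summaries, other variance estimates, a replicate block and leaving out each array.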

Additional observations from a re-analysis of the deposited data

How the results depend on the processing

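In every setting tried, 0 mitochondrial ribosomal probes were called. Over all probes, 1 was called with no filter, after averaging a gene's probes and with the ordinary t statistic, and 0 otherwise. The members that did not overlap numbered 4, all higher, with a floor of 64, against 2.02% higher and 0.775% lower of all 13033 probes. With an offset of 16, which also orders values below the floor, they numbered 15, 10 higher and 5 lower, against 4.21% and 3.91%. They numbered 9 to 16 when single arrays were left out, where fewer arrays must be separated. Without Klf4-deficient replicates 1, 2 and 3 in turn, 11, 9 and 9 were higher and 0, 1 and 0 lower. Of all probes tested, 5.36%, 4.97% and 5.34% were then higher without overlap, and 1.72%, 1.52% and 1.52% lower. The members higher in Klf4-deficient arrays were 32 of 46 when probes had to exceed the floor on 3 arrays, which tests fewer probes. Probes at large also lay on the higher side under that filter. The median difference was 0.22 over all 6422 probes and 0.34 over the 46 members, against -0.05 and 0.12 in the main fit. The count of 32 is therefore no shift of the members alone. The median difference of the members was 0.39 without WT replicate 1 and lay between 0.01 and 0.39 over the arrays left out in turn. Among the 50 named probes, 28 of 799 values over 17 settings, from 12 probes, had the opposite sign, and the cause was not tested. Settings that change only the filter, the variance estimate, the block or which probe of a gene is kept leave a probe's difference as it was. Its sign could not turn there, so the share of 799 overstates how stable the signs are. So does the naming rule, which picked many of these probes for their small p in these same data. The floor moved sizes more than signs: of the named members, 10 of 30 moved over 1.5 times with a floor of 16 and 17 of 28 with a floor of 64. With the floor at 64, which lies above many of these values, Mrpl3 ILMN_1231390 was 0.97, Mrpl40 ILMN_2609087 0.42, Mrpl37 ILMN_1254715 0.40, Mrpl19 ILMN_2652226 0.53, Mrpl38 ILMN_2664049 -0.05 and Mrrf ILMN_2589266 -0.04. The opposite signs with a floor of 16 were Kit ILMN_1216898 at 0.06 and Flt3 ILMN_2761370 at 0.28, with an offset of 16 Mrpl20 at -0.01 and Flt3 at 0.42, and with a floor of 64 Mrpl20 at -0.10. The remaining opposite signs came from leaving out single arrays, where values ran from -1.06 to 0.78 for Mrpl20 ILMN_2665316, -0.65 to 1.09 for Mrpl21 ILMN_2543346, -0.91 to 0.81 for Mrpl23 ILMN_1236904 and -1.77 to 0.22 for Mrpl33 ILMN_2629835. They ran from -0.04 to 1.26 for Mrpl3 ILMN_2643264, -0.15 to 0.87 for Mrps18a ILMN_2717916 and -0.66 to 0.50 for Mrps28 ILMN_2752224. For surface markers they ran from -0.83 to 0.95 and -1.15 to 0.36 for Kit ILMN_1216898 and ILMN_1246876, -1.17 to 1.21 for Flt3 ILMN_2761370, -1.63 to 0.48 for Cd48 ILMN_2633530 and -0.91 to 0.05 for Ptprc ILMN_1212836. The direction splits by setting and the subunit gap were chosen after seeing the data. Signal over background limits these results, since 50.2% of the values of tested members lay at the floor.

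Whether the replicate numbers pair the samples is not given in the sources used here, and the main fit did not pair them. Deviations of same-numbered arrays correlated at 0.03 to 0.04, and those of other pairs across groups at -0.03 to -0.01. Each array thus went best with its own number, but all these values were near 0. Deviations were taken from each group's mean, so an array's values against the other group must balance around 0. The correlations therefore do not settle whether the samples are paired. With the replicate block 0 probes were called by limma. An unadjusted p under 0.05 was reached by 362 probes, 6 of them members, against 371 and 7 without the block. The members' median of 0.12 and the 7 that did not overlap cannot change under a block in this balanced design.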
